A study of Homo sapiens with 18 samples.

Results

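USP13 and its paralog USP5, a pair of deubiquitinating enzymes of the same family, were followed through every library of a knockdown study in 786-O cells. They are 2 of the 27064 genes that the deposited files name, chosen because USP13 was the target of 2 of the hairpins and USP5 is its closest relative. USP13 has 1 listed transcript and USP5 has 2, and all of them passed the filter on low counts. 786-O cells are a long-established line from a clear-cell kidney carcinoma and have no working VHL, the ubiquitin ligase subunit that targets hypoxia-inducible factors.

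The study held 18 RNA-seq libraries in 6 groups of 3. In the USP13 experiment, cells carried the USP13 hairpin sh50, the USP13 hairpin sh52 or a control hairpin (shCtrl). In the ZHX2 experiment, cells carried the ZHX2 hairpin sh43, the ZHX2 hairpin sh45 or shCtrl, again as a set of libraries of its own. ZHX2, a transcription factor with zinc fingers and homeoboxes, is the protein that USP13 deubiquitinates according to the study's title. The hairpins were delivered to 1 cell line, so that no second line was available for comparison. The titles assign sh43 and sh45 to ZHX2, whereas the treatment protocol in the labels lists these numbers among the USP13 hairpins. The level of ZHX2 mRNA was 11.8% of control under sh43 and 24.6% under sh45, and the values of USP13 follow.

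USP13 and USP5 are cysteine proteases that remove ubiquitin. Each carries a zinc-finger ubiquitin-binding domain (ZnF-UBP) before the catalytic core and a pair of ubiquitin-associated domains within it. In USP5 the zinc finger grips the free end of a ubiquitin chain that is attached to no protein, and the enzyme takes such chains apart and returns single ubiquitin to the pool. The zinc finger of USP13 binds ubiquitin poorly, and USP13 is known mainly for removing ubiquitin from chosen proteins, among them MITF and partners in autophagy and in the degradation of endoplasmic reticulum proteins.

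The target sites of the USP13 hairpins are shown beside USP5 to compare the paralogs over the full length of each site. Shorter matches were not looked for. Coordinates are those of GRCh38 with GENCODE release 29, which were not the build named in the submitters' processing notes (hg19). The coding sequences of USP13 and USP5 were 66.9% identical, at 1668 of 2492 aligned bases. Each site is 21 bases long, lies in coding sequence and was found without a mismatch in USP13. Below each site stands a window of the USP5 transcript NM_001098536 with the fewest mismatches to it, with the mismatched bases in capitals. These windows are not the positions that the coding alignment pairs with the sites. It paired 1 base of the sh50 window and 0 bases of the sh52 window.
sh50, USP13 exon 16 of 21, chr3:179757054-179757074, plus strand: cgcctgatgaaccaattgata
sh50, USP5 exon 15 of 20, chr12:6863291-6863311, plus strand: cTccGgatgaGccCaAAgGta
sh52, USP13 exon 10 of 21, chr3:179730662-179730682, plus strand: ccggtgaaatctgaactcatt
sh52, USP5 exon 8 of 20, chr12:6858558-6858578, plus strand: cAgCtgCTaCctCaactcTGt
The best USP5 window had 7 mismatches to the sh50 site. For sh52, 2 windows shared the lowest number, 8 mismatches. Among the GENCODE transcripts of all other genes, none had a site with 3 or fewer mismatches to sh50. For sh52 there was 1, in ST3GAL3, a sialyltransferase gene, with 3 mismatches, and its log2 change under sh52 was -0.06 ± 0.14 (SE, adjusted p = 0.828, edgeR).

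The listed transcript of USP13, NM_003940, is 7933 bases long. Its coordinates were taken from the GENCODE transcript matched to it, which is 8323 bases long. That model lies on chr3:179652755-179789401, plus strand, in 21 exons with a coding length of 2589 bases. For USP5 the matched models are 3181 bases long for NM_001098536 and 3083 for NM_003481, against listed lengths of 3190 and 3115. Both listed USP5 transcripts lie on the plus strand of chromosome 12, NM_001098536 at chr12:6852128-6866629 and NM_003481 at chr12:6852148-6866620, with 20 exons each. They share all coding sequence except one stretch, shown because it is the main difference by which reads can be assigned to one or the other. Exon 15 of NM_001098536 runs 69 coding bases past the end that NM_003481 uses.
USP5, end of exon 15 in NM_001098536, chr12:6863309-6863377, plus strand: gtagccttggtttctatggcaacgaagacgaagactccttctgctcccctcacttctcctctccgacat
No other gene in the RefSeq annotation overlapped either locus. The libraries hold no strand information, and overlap with genes that GENCODE alone lists was not looked for.

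Libraries held between 11192561 and 16511290 estimated counts. All 7 markers looked at for a kidney epithelial or clear-cell carcinoma line were detected, with PAX8, a renal lineage transcription factor, among them. They summed to between 3499 and 5250 TPM (transcript abundance corrected for length and depth). VIM, which is not particular to kidney epithelium, was at 2170 to 3501 TPM and dominated this sum. PAX8 was at 154 to 249 TPM and PAX2 at 12 to 61 TPM. The 8 markers of leukocytes, endothelium, hepatocytes and muscle summed to at most 2.61 TPM in any library, and CD3E, a T cell gene, was at 0 throughout. The share of counts from mitochondrial rRNA moved with the groups. It was 4.11% to 4.43% under sh50 and 3.54% to 3.796% under sh52, against 2.54% to 2.70% in shCtrl. In the ZHX2 experiment it was 1.51% to 1.57% under sh43 and 2.83% to 3.35% under sh45, against 1.18% to 1.32% in shCtrl. The part of this share in the results was not tested. The labels do not say whether replicates came from separate cultures, so the p-values reflect the spread among libraries alone, which may be technical.

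USP13 mRNA fell under both of its hairpins, and close to the same extent. The counts behind it were modest, between 188 and 341 under sh50 and between 210 and 249 under sh52, against 399 to 554 in shCtrl. Scaled for library size (CPM with edgeR's TMM scaling), the sh50 libraries held 16.8, 17.2 and 20.5 CPM. The sh52 libraries held 14.9, 18.1 and 17.9 CPM, and the shCtrl libraries 36.9, 34.7 and 31.8 CPM. All 6 knockdown libraries lay below all 3 control libraries, and the 2 hairpin groups overlapped each other. Group means were 18.2 ± 2.03 CPM under sh50 and 16.9 ± 1.81 CPM under sh52, against 34.5 ± 2.57 CPM in shCtrl (SD, n = 3 each).

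In edgeR's quasi-likelihood fit of the 9 libraries, the log2 change of USP13 was -0.92 ± 0.11 under sh50 (SE, 95% interval -1.141 to -0.70, adjusted p = 6.31e-07). Under sh52 it was -1.03 ± 0.11 (95% interval -1.25 to -0.80, adjusted p = 3.26e-07). The message that remained was 52.9% of control under sh50 and 49.0% under sh52. Against one another the hairpins differed by a log2 value of -0.11 (sh52 over sh50, 95% interval -0.34 to 0.13, edgeR adjusted p = 0.612), where 10.2% of all genes passed. Of all 13708 genes tested, 21.5% passed the threshold under sh50 and 12% under sh52. The change of USP13 was not the deepest of its experiment. Under sh50, 170 genes had a more negative log2 change than USP13, and under sh52, 87 genes did. In these bulk libraries a lower level in every cell and a loss in some of the cells cannot be told apart.

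**Figure D1:**
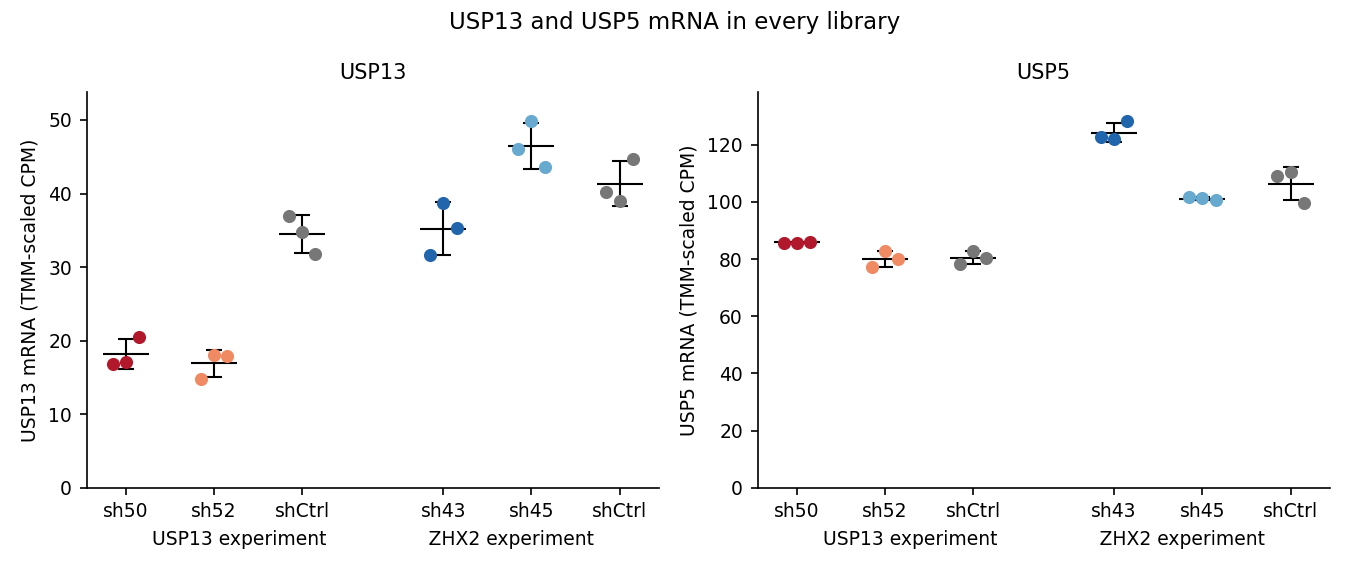
USP13 (left) and USP5 (right) mRNA in each of the 18 libraries, as TMM-scaled CPM on the y axis, by group on the x axis. Points are libraries, bars the mean ± SD of 3. USP13 sits between 14.9 and 20.5 CPM under sh50 and sh52 and above 31 CPM elsewhere, while USP5 keeps to a narrow range in the USP13 experiment and is spread more widely in the ZHX2 experiment.

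USP5 mRNA did not pass the test under either USP13 hairpin. The sh50 libraries held 85.8, 85.8 and 85.9 CPM of USP5 and the sh52 libraries 77.3, 82.8 and 79.9 CPM, against 78.3, 82.7 and 80.5 CPM in shCtrl. The sh50 libraries lay just above the controls without overlap, and the sh52 libraries spanned the range of the controls. The log2 change was 0.09 ± 0.06 under sh50 (SE, 95% interval -0.04 to 0.22, adjusted p = 0.316, edgeR). Under sh52 it was -0.01 ± 0.06 (95% interval -0.14 to 0.12, adjusted p = 0.937, edgeR). These intervals leave room for a gain of at most 0.22 and a loss of at most 0.14 on the log2 scale. USP5 had between 959 and 1430 counts per library in this experiment. That was 4.19 to 5.2 times those of USP13 in the knockdown libraries and 2.12 to 2.53 times in shCtrl. The intervals of USP5 were also narrower.

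In the ZHX2 experiment both genes moved under sh43, in opposite directions. USP13 was at 31.7, 38.8 and 35.3 CPM under sh43 and at 46.1, 49.8 and 43.6 CPM under sh45, against 40.3, 39.0 and 44.8 CPM in shCtrl. Every sh43 library lay below every control, though one by only a small margin, and the sh45 and control libraries overlapped. The log2 change of USP13 was -0.23 ± 0.08 under sh43 (SE, adjusted p = 0.0155, edgeR), which left 85.3% of the control level. Under sh45 it was 0.17 ± 0.08 (95% interval 0.00 to 0.33, adjusted p = 0.0851, edgeR). Here 68.8% of the 13597 genes tested passed the threshold under sh43 and 52.6% under sh45, so a call for a single gene was the common outcome.

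The sh43 result for USP13 rested on single libraries. Without sh43 replicate 1 the log2 change was -0.16 (edgeR adjusted p = 0.126), and without ZHX2 shCtrl replicate 3 it was -0.17 (adjusted p = 0.0991). Over all 9 left-out libraries the adjusted p ran between 0.00506 and 0.126. The sh45 value was as unsettled in the other direction. Without sh45 replicate 3 it was 0.22 (adjusted p = 0.0428) and without ZHX2 shCtrl replicate 3 it was 0.23 (adjusted p = 0.0343), within a range of 0.0343 to 0.302 over the left-out libraries. The hairpins themselves differed for USP13, by a log2 value of 0.39 ± 0.08 (sh45 over sh43, SE, edgeR adjusted p = 0.000127), and this passed with any 1 library left out. Between these hairpins 66.8% of all genes passed.

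USP5 rose under sh43. It was at 122.7, 121.9 and 128.2 CPM under sh43 and at 101.6, 101.3 and 100.6 CPM under sh45, against 109.1, 110.6 and 99.7 CPM in shCtrl. The sh43 libraries were above all controls, and the sh45 libraries fell inside the range of the controls. The log2 change of USP5 was 0.22 ± 0.06 under sh43 (SE, adjusted p = 0.000932, edgeR), 116.7% of control. Under sh45 it was -0.07 ± 0.06 (95% interval -0.19 to 0.04, adjusted p = 0.287, edgeR). USP5 was thus lower under sh45 than under sh43, by -0.30 ± 0.06 (log2, SE, edgeR adjusted p = 4.29e-05), where USP13 was higher. On a log2(TPM + 1) scale, which sets the median gene at -0.19 under sh45, USP13 came to -0.03 and USP5 to -0.27 (limma adjusted p = 0.00187). Taken relative to that median, they were at 0.16 and -0.08.

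**Figure D2:**
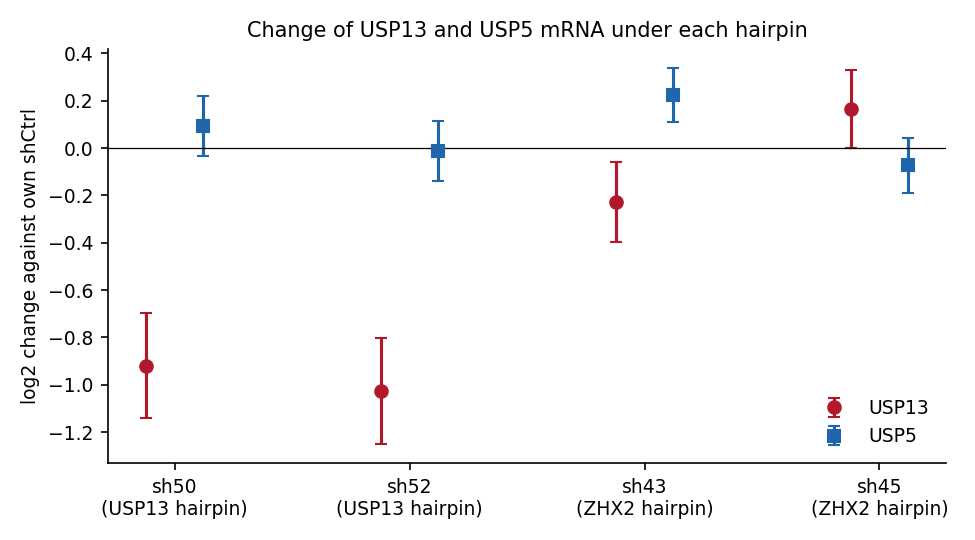
Log2 change of USP13 (circles) and USP5 (squares) mRNA under each hairpin against its own shCtrl (y axis), with 95% intervals from the edgeR fit. USP13 lies near -1 under both of its own hairpins, and USP5 intervals cross 0 except under sh43. The 2 genes lie on opposite sides of 0 under sh50, sh43 and sh45, though neither passed the test under sh45.

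USP5 was the more abundant of the pair in every library when levels are set per length. Its TPM exceeded that of USP13 by 13.7, 13.4 and 11.2 times under sh50. The excess was 13.9, 12.2 and 11.9 times under sh52, against 5.68, 6.37 and 6.77 times in the control of that experiment. The knockdown libraries did not overlap the controls. A ratio within a library is independent of the scaling between libraries. The log2 ratio of USP13 to USP5 was -3.67 ± 0.16 under sh50 and -3.66 ± 0.12 under sh52, against -2.65 ± 0.13 in shCtrl (SD, n = 3 each). The differences of -1.02 for each hairpin had p = 0.1 in the two-sided exact permutation test, the smallest p that 3 libraries against 3 allow.

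Under sh43, USP5 exceeded USP13 by 10.3, 8.40 and 9.67 times in TPM. Under sh45 it did so by 5.87, 5.43 and 6.15 times, against 7.23, 7.54 and 5.93 times in shCtrl. The sh43 libraries stood above the controls and the sh45 libraries overlapped them. The log2 ratio of USP13 to USP5 differed from control by -0.46 under sh43 (p = 0.1, exact permutation test, two-sided, n = 3 each) and by 0.24 under sh45 (p = 0.2, same test). The sh43 difference had the same sign as those of the USP13 hairpins, and there USP13 was lower and USP5 higher than in control.

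**Figure D3:**
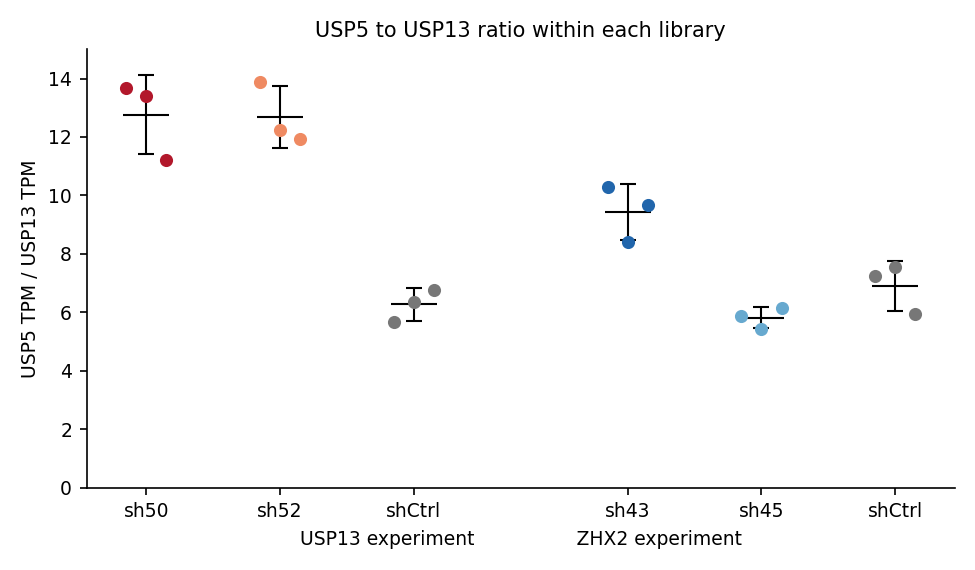
USP5 TPM divided by USP13 TPM in each library (y axis), by group (x axis), with the mean ± SD of 3. The ratio is 11.2 to 13.9 under sh50 and sh52, 8.40 to 10.3 under sh43, and 5.43 to 7.54 under sh45 and in both control sets.

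The USP13 signal came wholly from NM_003940, so its transcript result follows the gene result. The log2 change of NM_003940 was -0.91 ± 0.10 under sh50 and -1.03 ± 0.10 under sh52 (SE, edgeR adjusted p = 7.68e-08 and 3.15e-08), where 14.4% and 7.24% of the 34393 transcripts tested passed. No other USP13 variant was listed, so a switch between variants could not be looked for.

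Both USP5 transcripts were present at similar levels. The longer-exon form NM_001098536 was at 21.2, 19.7 and 22.1 TPM under sh50 and at 20.1, 20.5 and 19.8 TPM under sh52, against 19.5, 22.7 and 20.5 TPM in shCtrl. NM_003481 was at 24.4, 26.3 and 26.3 TPM under sh50 and at 25.1, 25.7 and 25.4 TPM under sh52, against 25.7, 23.99 and 23.6 TPM in shCtrl. Hairpin and control libraries overlapped for both transcripts. Their log2 changes lay between -0.07 and 0.13, and none passed the test (edgeR adjusted p between 0.223 and 0.786).

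In the ZHX2 experiment both USP5 transcripts were higher under sh43. NM_001098536 was at 33.2, 30.7 and 32.2 TPM under sh43 and at 24.2, 23.7 and 23.5 TPM under sh45, against 28.6, 29.1 and 26.5 TPM in shCtrl. NM_003481 was at 36.8, 37.3 and 37.8 TPM under sh43 and at 29.005, 27.7 and 27.1 TPM under sh45, against 36.2, 34.3 and 33.5 TPM in shCtrl. In TPM the sh43 libraries were above and the sh45 libraries below all controls for each transcript. In the fit of counts, where 58.7% of 34242 transcripts passed under sh43, the log2 change was 0.27 ± 0.07 for NM_001098536 and 0.18 ± 0.06 for NM_003481 (SE, edgeR adjusted p = 0.000735 and 0.0114). The call for NM_003481 ended without ZHX2 shCtrl replicate 3, at a log2 change of 0.14 (adjusted p = 0.0733, within 0.00496 to 0.0733 over the left-out libraries). Under sh45, where 41.2% of transcripts passed, neither form did, with log2 changes of -0.02 ± 0.07 and -0.09 ± 0.06 (adjusted p = 0.855 and 0.243).

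The mix of the USP5 transcripts hardly varied. NM_003481 made up between 51.3% and 57.1% of the USP5 TPM over all 18 libraries. Its mean share was 55.0 ± 1.87% under sh50 and 55.8 ± 0.333% under sh52, against 53.9 ± 2.73% in shCtrl (SD, n = 3 each). It was 53.8 ± 1.18% under sh43 and 54.0 ± 0.519% under sh45, against 55.3 ± 1.03% in shCtrl. Every hairpin group overlapped its control, and the two-sided exact permutation test gave p = 0.6, 0.4, 0.2 and 0.2 for sh50, sh52, sh43 and sh45. In each library, counting alone left several points of uncertainty in the share. In sh50 replicate 1, for example, the share of counts was 52.9% with a 95% Wilson interval of 49.7% to 56.0%, which covers counting error only and not the error of dividing shared reads.

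**Figure D4:**
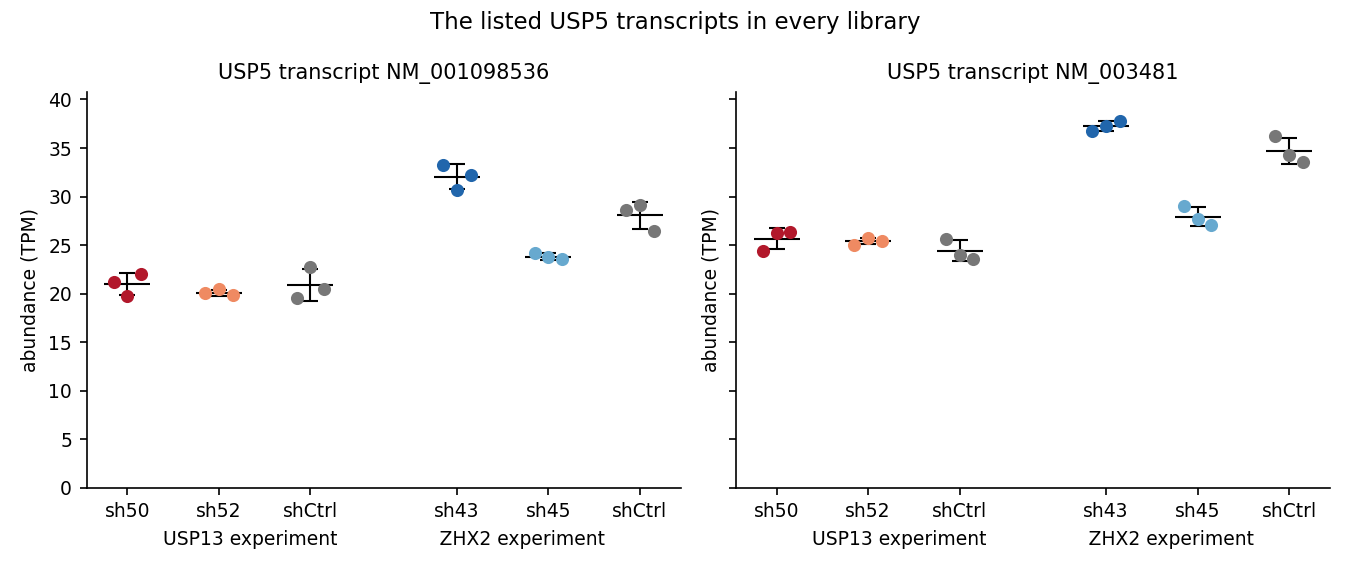
Abundance in TPM (y axis) of the USP5 transcripts NM_001098536 (left) and NM_003481 (right) in each library, by group (x axis), with the mean ± SD of 3. Both panels show the same order of groups in the ZHX2 experiment, with sh43 highest and sh45 lowest, and overlapping groups in the USP13 experiment.

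Across the 6 groups, the order of levels differed between the paralogs. In TPM, USP13 was highest in the ZHX2 shCtrl libraries (9.17 ± 0.869), followed by sh45 (8.92 ± 0.629), sh43 (7.38 ± 0.655), the USP13 shCtrl libraries (7.27 ± 0.731), sh50 (3.69 ± 0.539) and sh52 (3.604 ± 0.309, SD, n = 3 each). Of these neighbours, the ZHX2 shCtrl and sh45 libraries overlapped, as did sh43 and USP13 shCtrl, and sh50 and sh52. USP5 was highest under sh43 (69.3 ± 1.141), then in ZHX2 shCtrl (62.7 ± 2.48), under sh45 (51.7 ± 1.30), under sh50 (46.7 ± 1.51), under sh52 (45.5 ± 0.552) and in USP13 shCtrl (45.3 ± 1.33). In TPM, the groups of the ZHX2 experiment did not overlap each other for USP5, and the 3 groups of the USP13 experiment did. The scale decides part of this. In CPM the USP5 values of sh45 lay inside the range of their controls, and those of sh50 lay above theirs without overlap. For USP13 the CPM mean was higher under sh45 (46.47) than in ZHX2 shCtrl (41.35), the reverse of the TPM order.

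The control sets were not alike. In a fit of all 18 libraries, USP13 was at 42.1 ± 3.08 CPM in the ZHX2 shCtrl libraries and at 33.4 ± 2.5 CPM in the USP13 shCtrl libraries (SD, n = 3 each). The log2 difference was 0.33 ± 0.09 (ZHX2 over USP13 experiment, SE, edgeR adjusted p = 0.0026). USP5 was at 108.3 ± 6.0 CPM in the ZHX2 shCtrl libraries and at 78.0 ± 2.14 CPM in the USP13 shCtrl libraries, a log2 difference of 0.47 ± 0.06 (adjusted p = 8.19e-09). Of the 14200 genes in that fit, 56.5% passed. The control hairpin, the experiment and anything else that went with them cannot be told apart here, so levels between the experiments are described only.

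Beyond the pair, 3 groups of related genes were followed by their counts and medians. The first was the rest of the family with a ZnF-UBP domain, of which 11 of 13 members passed the filter on low counts (USP44 and USP51 did not). Under sh50, 2 of the 11 rose and 0 fell, where 10.2% of all genes rose and 11.3% fell, and the median log2 change was -0.02 against 0.00 for all genes. The members that rose were HDAC6, a cytoplasmic deacetylase that binds ubiquitin (0.29 ± 0.07, SE, adjusted p = 0.00397), and USP20 (0.26 ± 0.08, adjusted p = 0.0218). Under sh52, 0 rose and 2 fell, where 5.45% of all genes rose and 6.57% fell, with a median of -0.03 against 0.00. They were USP3, a histone deubiquitinase (-0.29 ± 0.07, adjusted p = 0.0118), and USP22, the deubiquitinase of the SAGA complex (-0.18 ± 0.06, adjusted p = 0.0356). No member of this family passed edgeR's test under both USP13 hairpins, where 3.26% of all genes rose and 4.16% fell under both. At an unadjusted p under 0.05, 2 members were lower under sh50 (USP22 and USP49) and 1 was higher under sh52 (USP20), of which DESeq2 called 0. Most of these calls rested on single libraries. The USP20 call ended without sh50 replicate 1 or 2 or shCtrl replicate 1 or 2, the USP3 call without sh52 replicate 2 or 3 or shCtrl replicate 1, and the USP22 call without sh52 replicate 1 or 3 or shCtrl replicate 1 or 2. Over all alternatives that ended them, the adjusted p was 0.0688 to 0.105 for USP20, 0.0553 to 0.0873 for USP3 and 0.0501 to 0.218 for USP22.

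Under sh43, 2 members of the ZnF-UBP family rose and 6 fell, where 33.5% of all genes rose and 35.3% fell, with a median of -0.31 against -0.02 for all genes. Under sh45, 1 rose and 4 fell, where 25.3% of all genes rose and 27.3% fell, with a median of -0.05 against -0.01. Without sh45 replicate 1, 2 rose under sh45. USP22 fell under both hairpins, by -0.31 ± 0.05 under sh43 and -0.44 ± 0.05 under sh45 (log2, SE, edgeR adjusted p = 1.12e-06 and 9.29e-09). USP22 was the 1 member to fall under both, where 15.9% of all genes did. It was at 264.6 CPM under sh43 and 242.6 CPM under sh45, against 329.1 CPM in shCtrl. USP39, a splicing factor that keeps the fold but lacks the active cysteine, rose under sh43 (0.53 ± 0.07) and fell under sh45 (-0.25 ± 0.07, adjusted p = 5.68e-08 and 0.00315). HDAC6 did the reverse, with -0.23 ± 0.06 under sh43 and 0.51 ± 0.06 under sh45 (adjusted p = 0.00181 and 6.65e-08).

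The second group held the genes that encode ubiquitin, the enzymes that activate it and those that recycle it, 12 of 12 tested. This is the pool that USP5 feeds. Under sh50, 1 rose and 4 fell, where 10.2% of all genes rose and 11.3% fell, with a median of -0.14 against 0.00 for all genes. RPS27A, which encodes ubiquitin fused to a ribosomal protein, rose (0.27 ± 0.06, edgeR adjusted p = 0.0012), and UBA1, UBA6, USP14 and UCHL1 fell. Under sh52, 0 rose and 1 fell, where 5.45% of all genes rose and 6.57% fell, with a median of -0.06 against 0.00. That gene was UCHL1, a neuronal and tumour-associated ubiquitin hydrolase, which was at 520.3 ± 2.97 CPM under sh50 and 525.6 ± 2.42 CPM under sh52, against 603.2 ± 22.2 CPM in shCtrl. Its log2 changes were -0.21 and -0.20 (adjusted p = 0.00117 and 0.00471), and it was the 1 gene of the group to pass under both hairpins, where 4.16% of all genes fell under both. On the log2(TPM + 1) scale the sh52 call of UCHL1 ended (limma adjusted p = 0.0922), which left 0 genes of the group called in either direction under sh52. On that scale 649 of all 12885 genes passed under sh52. The sh50 call of RPS27A ended there too (limma adjusted p = 0.0613), which left 0 genes of the group higher under sh50. Of all 12885 genes, 623 were higher there. For the sh52 count of 0, edgeR's unadjusted p and DESeq2 gave 0 too. The number that fell under sh50 lay between 2 and 6 with 1 library left out and was 2 without sh50 replicate 1 or 2 or shCtrl replicate 1 or 2. The number that rose under sh50 was 2 without sh50 replicate 3, sh52 replicate 1 or 2 or shCtrl replicate 3. The OTULIN value under sh52 was -0.19 ± 0.07 (adjusted p = 0.0903).

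In the ZHX2 experiment most genes of this group rose under sh43, 10 against 0 that fell, where 33.5% of all genes rose and 35.3% fell, with a median of 0.28 against -0.02 for all genes. The number that rose was 8 to 11 with 1 library left out. It was 7 on the log2(TPM + 1) scale with limma, where 3573 of all 12728 genes rose. At an unadjusted p under 0.05, 0 fell as well, and DESeq2 also called 0, while without shCtrl replicate 2 edgeR called 1. Under sh45, 4 rose and 2 fell, where 25.3% of all genes rose and 27.3% fell, with a median of 0.10 against -0.01. On the log2(TPM + 1) scale with limma the balance turned, with 1 higher and 5 lower. There 1519 of all 12728 genes were higher and 5823 lower, so the balance of all genes moved the same way. Under both hairpins 4 rose, where 14.1% of all genes did, among them RPS27A, UBA6 and PSMD14. PSMD14, the deubiquitinase in the lid of the proteasome, was at 137.0 ± 2.4 CPM under sh43 and 83.6 ± 1.66 CPM under sh45, against 71.5 ± 2.33 CPM in shCtrl (log2 changes of 0.94 and 0.23, edgeR adjusted p = 4.83e-14 and 0.00168). UBA6, the alternative ubiquitin-activating enzyme, had log2 changes of 0.93 and 0.20, and RPS27A had 0.26 and 0.20. UBA1, the main activating enzyme, was higher under sh43 (0.10 ± 0.04, adjusted p = 0.0267) and lower under sh45 (-0.28 ± 0.04, adjusted p = 1.99e-06). On the log2(TPM + 1) scale, RPS27A and UBA6 came to -0.01 and -0.01 under sh45 and PSMD14 no longer passed (limma adjusted p = 0.759), with the median gene at -0.19.

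The third group held proteins reported as substrates or partners of USP13, 17 of 17 tested. USP13 acts on the proteins, whereas the values here are of their mRNA. Under sh50, 1 rose and 6 fell, where 10.2% of all genes rose and 11.3% fell, with a median of -0.13 against 0.00 for all genes. The number that fell was 4 to 6 with 1 library left out. It was 7 on the log2(TPM + 1) scale with limma, where 1291 of all 12885 genes fell. Under sh52, 2 rose (USP10 and MITF) and 3 fell, where 5.45% of all genes rose and 6.57% fell, with a median of 0.02 against 0.00. On the log2(TPM + 1) scale with limma, 0 rose and 1 fell, where 312 of all 12885 genes rose and 337 fell. The number that rose was 1 without sh50 replicate 1, sh52 replicate 1 or 2 or shCtrl replicate 2, and 0 without sh52 replicate 3 or shCtrl replicate 3. Under both hairpins 3 fell, ZHX2 and ACLY among them, where 4.16% of all genes did, and USP10 rose, where 3.26% did.

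ACLY, the enzyme that makes cytosolic acetyl-CoA from citrate, was at 428.9 ± 7.25 CPM under sh50 and 443.1 ± 10.7 CPM under sh52, against 545.9 ± 11.9 CPM in shCtrl (SD, n = 3 each). Its log2 changes were -0.35 ± 0.05 and -0.30 ± 0.05 (SE, edgeR adjusted p = 4.41e-06 and 7.28e-05).

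ZHX2 mRNA itself was at 134.4 ± 1.75 CPM under sh50 and 137.7 ± 2.99 CPM under sh52, against 154.6 ± 5.19 CPM in shCtrl. The log2 changes were -0.20 ± 0.06 and -0.17 ± 0.06 (SE, edgeR adjusted p = 0.00859 and 0.0466). The sh52 call sat at the threshold and ended without each of the 9 libraries in turn, with an adjusted p of 0.052 to 0.179 over the 13 of 16 alternatives that ended it. USP10, a deubiquitinase of p53, had log2 changes of 0.17 ± 0.06 and 0.24 ± 0.06 (adjusted p = 0.0487 and 0.0105). Its sh50 call ended without any of the sh50 or shCtrl libraries or without sh52 replicate 3, and its sh52 call without sh52 replicate 3 or shCtrl replicate 3.

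Under sh43, 4 of these 17 genes rose and 11 fell, ZHX2 as the target of the hairpin included, where 33.5% of all genes rose and 35.3% fell, with a median of -0.20 against -0.02 for all genes. Under sh45, 1 rose and 10 fell, again with ZHX2, where 25.3% of all genes rose and 27.3% fell, with a median of -0.23 against -0.01. On the log2(TPM + 1) scale with limma, 0 rose and 13 fell, where 1519 of all 12728 genes rose and 5823 fell. Without shCtrl replicate 2, 2 rose under sh45. Under both hairpins 7 fell, where 15.9% of all genes did, among them ZHX2 as the target, BECN1, MITF, ACLY and STING1, and OGDH rose, where 14.1% did. STING1, the adaptor of cytosolic DNA sensing, was at 24.4 ± 0.985 CPM under sh43 and 50.8 ± 1.75 CPM under sh45, against 61.0 ± 0.679 CPM in shCtrl (SD, n = 3 each). Its log2 changes were -1.32 and -0.27 (edgeR adjusted p = 3.42e-15 and 0.00106). BECN1, a core autophagy protein, had -0.53 and -0.73, and MITF, a lineage transcription factor, -0.47 and -0.74. ACLY had -0.11 and -0.23, and its sh43 call (adjusted p = 0.0166) ended without sh43 replicate 2 or 3 or shCtrl replicate 1, with 0.0508 to 0.0907 over the alternatives that ended it. OGDH, a subunit of the oxoglutarate dehydrogenase complex, had 0.31 and 0.20, the second of which came to -0.05 on the log2(TPM + 1) scale.

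**Figure D5:**
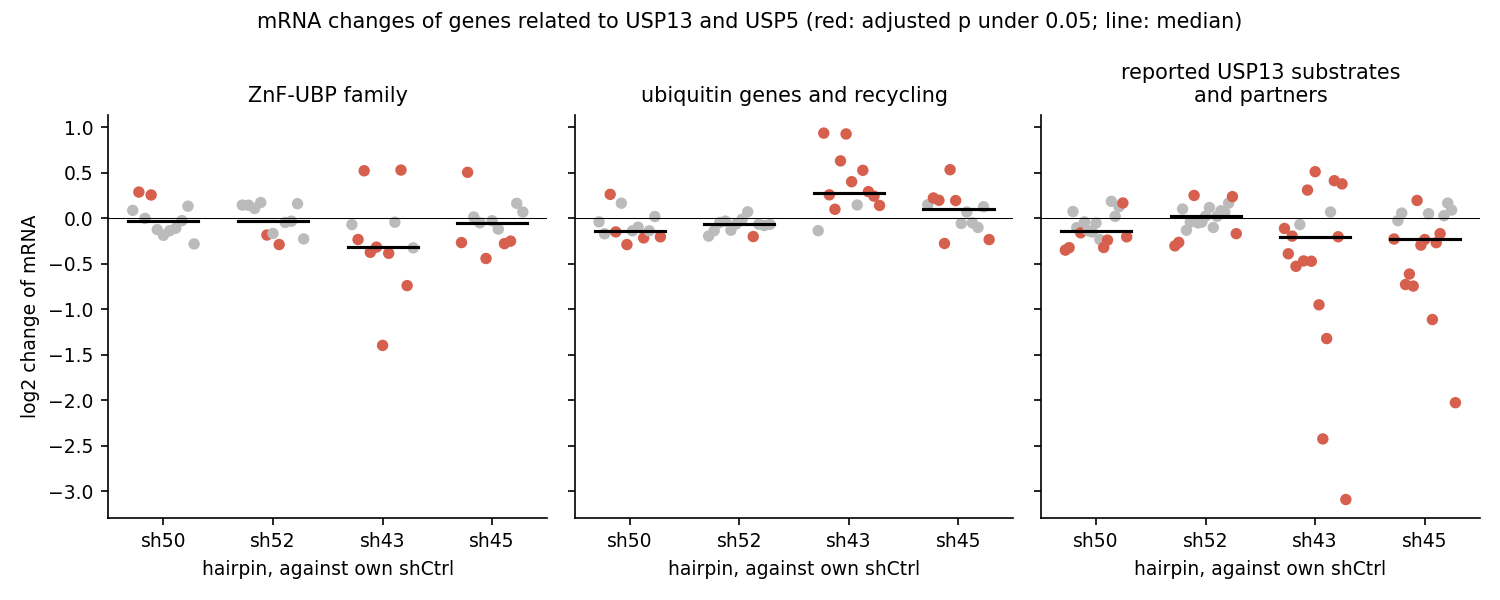
Log2 change of each tested gene of the 3 groups (one panel each, y axis) under each hairpin against its own shCtrl (x axis). Red points passed the edgeR threshold and black lines are medians. The changes are small under sh50 and sh52, between about -0.35 and 0.29, and wider under sh43 and sh45, down to -3.09 for ZHX2 as the target of sh43.

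Among 11086 other genes with a mean of at least 5 CPM, likeness to each member was measured as the root mean square difference over the 4 log2 changes against control. This is a description over 4 comparisons, in which hairpins of one experiment share controls. For USP13, 0 genes lay within 0.2. The measure is not scaled to the size of the changes, and other genes with changes as large were not compared. The closest were DENND5B at 0.234, KLHL28 at 0.269, SMYD2 at 0.285, CNOT6 at 0.296 and SKP2 at 0.298. DENND5B, for example, had log2 changes of -0.76 under sh50, -0.95 under sh52, -0.19 under sh43 and -0.27 under sh45. SKP2, a substrate-recognition subunit of a ubiquitin ligase, had -0.90, -0.89, -0.63 and -0.25 in the same order. The pattern of USP5, with small changes throughout, was shared widely, and 2484 genes lay within 0.2 of it. The closest were POGK at 0.006, DRG2 at 0.022 and ZNF330 at 0.036.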

How the data were processed

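Groups were taken from sample titles and characteristics. Per the labels' protocols, RNA was column-purified with DNase digestion and libraries were made with an unstranded kit and read as pairs of 150 bases. Per the file headers, the authors deposited 1 Salmon table per library, with a length, an effective length, TPM and an estimated count for every RefSeq transcript. The deposited estimated counts carry no depth scaling and were whole numbers. The TPM values deposited by the authors are scaled to a fixed total per library, so they hold no depth. Salmon 0.11.3, STAR 2.5.2b, cutadapt 1.12, DESeq2 1.14.1 and hg19 are named, with no order, per the submitters' processing notes.

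Of 60422 listed transcripts, 1342 were further copies of one already listed, 59301 were named from RefSeq and 684 from GENCODE release 29. The 437 without a name, 0.0854% to 0.12% of counts, were left out. Counts were rounded and summed to genes. No files were identical, and a chi-square comparison gave 2.33 to 6.68 per degree of freedom over the 18 replicate pairs, so all libraries were kept. Tests used edgeR 4.0.16 in R 4.3.3 (filterByExpr with a minimum count of 10, TMM, quasi-likelihood F-test, 9 libraries per fit, Benjamini-Hochberg over all genes, threshold 0.05). Genes past it are said to have risen or fallen. Standard errors were taken from the F statistic. limma 3.58.1 on log2(TPM + 1) at a mean of at least 1 TPM and DESeq2 1.42.0 were alternatives, with other scalings, no filter, a replicate block, effective-length offsets, 2 groups alone and each library left out. The edgeR fit of genes was tested on simulated counts for the 9 libraries of the USP13 experiment. The other fits were not tested in this way. From each list the text names genes that passed under both hairpins in one direction and the 2 with the smallest p per comparison; likeness names the 5 closest genes for USP13 and 3 for USP5. Some genes that this rule names are not reported here. Other genes named to spell out a small count were chosen after their values were seen. The members and lists were chosen with earlier results of these data known.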

Additional observations from a re-analysis of the deposited data

Results flagged for a closer look

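The flagged results are all differences between the hairpins of one target, each taken as the second hairpin minus the first in the edgeR fit of 9 libraries. Between sh45 and sh43, USP13 differed by 0.395 and USP5 by -0.296 on the log2 scale, in opposite directions (adjusted p = 0.000127 and 4.29e-05). Between sh45 and sh43, 66.8% of all genes tested differed, so such a difference was the common outcome in this pair.

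In the same comparison of sh45 with sh43, members of the ZnF-UBP family differed by 0.737 for HDAC6, -0.781 for USP39 and -0.126 for USP22. Genes of the ubiquitin pool differed by -0.713 for PSMD14, -0.732 for UBA6 and -0.376 for UBA1. Reported substrates and partners differed by 1.054 for STING1, -0.200 for BECN1, -0.276 for MITF, -0.116 for ACLY and -0.114 for OGDH. ZHX2 itself differed by 1.064, being at 84.2 CPM under sh45 and 40.2 CPM under sh43.

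Between sh52 and sh50, where 10.2% of all genes differed, RPS27A differed by -0.310 (edgeR adjusted p = 0.000685). USP13 and USP5 did not pass the test between these hairpins.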

How the results depend on the processing

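USP13 under sh50 and sh52 passed under every alternative run, with log2 changes of -1.02 to -0.82 and -1.08 to -0.84. USP5 under sh43 did too, at 0.14 to 0.27. With log2(TPM + 1) and limma, USP13 under sh45 was -0.033, USP5 under sh52 0.005 and USP5 under sh45 -0.273, and OGDH, RPS27A and UBA6 under sh45 were -0.046, -0.007 and -0.005. That scale moved the median gene to -0.193 under sh45, and the split of calls to 1519 higher and 5823 lower, against 3436 and 3712 on counts. Under sh50 the split was 623 and 1291, against 1395 and 1547, and under sh52 649 genes passed in all, against 1647.

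Leaving out 1 library gave USP13 -0.305 to -0.156 under sh43 and 0.116 to 0.227 under sh45, and USP5 -0.031 to 0.014 under sh52. It gave NM_003940 -0.308 to -0.156 under sh43 and 0.130 to 0.241 under sh45, NM_003481 0.144 to 0.214 under sh43, and NM_001098536 -0.004 to 0.122 under sh50 and -0.074 to 0.041 under sh45. Calls under sh52 numbered 990 to 1661, the lowest without USP13 shCtrl replicate 2 and 1023 without shCtrl replicate 1. NM_003940 under sh45 passed with DESeq2 size factors (0.185, adjusted p = 0.0487) and with no filter (0.187, adjusted p = 0.0362). The cause of these shifts was not tested.

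Same-numbered libraries did not deviate together (r of -0.299 to 0.137 in the USP13 experiment, with 3 of 9 pairs over 0.1, and -0.158 to 0.121 in the ZHX2 experiment, with 1 of 9). With the replicate number as a block, USP13 was -0.925 under sh50, -1.031 under sh52, -0.232 under sh43 and 0.166 under sh45, and no call for USP13 or USP5 changed. Calls numbered 2698 under sh50 and 1461 under sh52. USP13 had between 439 and 704 counts per library in the ZHX2 experiment. The part of counting in the standard errors of its smaller changes was not tested.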
